A study of Mus musculus with 2 samples.

Results

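Long-read RNA sequencing of mouse adrenal gland was examined for 5 genes of mitochondrial cholesterol entry: Star, Stard3, Tspo, Vdac1 and Lonp1. The members were chosen by name, and all 5 had reads, among 17707 annotated mouse genes with reads, and passed the minimum of 10 reads that 11068 genes passed. The series holds 1 group of 2 libraries, replicates 1 and 2, from female B6CASTF1/J mice, an F1 hybrid of C57BL/6J and CAST/EiJ parents, aged 18 to 20 months. Each library was made from 1 µg of total RNA. No second condition, genotype or treatment is labelled, so the comparisons are between genes and between the libraries. The labels give the libraries the same donor entry and differ on the animal number, so whether they come from separate animals is not settled, and p-values measure only the spread and the counting between these libraries.

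Steroid synthesis starts when cholesterol reaches the inner mitochondrial membrane, where Cyp11a1 cleaves its side chain. Star, the steroidogenic acute regulatory protein, carries out the delivery that limits the rate, is made in response to ACTH, and loses its activity once it has been imported into the matrix, where the protease Lonp1 degrades it. Stard3 is a late endosomal membrane protein with a cholesterol-binding domain of the same START family. Tspo, the translocator protein, and Vdac1, the voltage-dependent anion channel, sit in the outer mitochondrial membrane; Tspo binds cholesterol with high affinity, and whether steroid synthesis needs it is disputed.

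Replicate 1 held 1478362 reads and replicate 2 held 1007541, of which 1412947 and 933963 lay on annotated mouse genes, and CPM below means reads in each 1000000 of the latter. A count of 3 reads, taken as an approximate floor for a count of 0, stands for 2.12 and 3.21 CPM. Intervals are exact 95% Clopper-Pearson intervals and cover counting error only. Markers of adrenal cortex, all 8 of 8 detected, took 6.81% and 6.31% of gene reads, and the 8 markers of the medulla took 1.20% and 0.944%. Adipocyte markers took 0.577% and 0.429%, and 6 skeletal muscle markers had 1016 reads in replicate 1 and 2 in replicate 2. The 4 liver markers had 10 and 5 reads and the 5 ovary markers 26 and 2, with Amh and Zp3 at 0. Macrophage markers had 399 and 310 reads and endothelial markers 381 and 284.

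Star and Lonp1 took many of the gland's reads, and Stard3 the fewest of the 5. Star, on chromosome 8 (chr8:25806555-25815982, plus strand, mm10), had 11801 reads or 8352 CPM in replicate 1 and 11712 reads or 12540 CPM in replicate 2, with a mean of 10446 ± 2961 CPM (SD, n = 2). Lonp1 (chr17:56614297-56626887, minus strand) had 4439 and 3104 reads, or 3142 and 3323 CPM. Both are nuclear genes of mitochondrial proteins, and the level of Lonp1 was nearly the same in the libraries while that of Star was higher in replicate 2. Tspo (chr15:83563592-83574203, plus strand) had 630 and 387 reads, or 445.9 and 414.4 CPM. Vdac1 (chr11:52360860-52389397, plus strand) had 291 and 147 reads, or 206 and 157.4 CPM. Stard3 (chr11:98358368-98381112, plus strand) had 95 and 56 reads, or 67.24 and 59.96 CPM. For these last genes the higher CPM was in replicate 1.

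Per kb of each gene's main annotated transcript, the order was Star, Lonp1, Tspo, Vdac1 and Stard3 in both libraries, at ranks 7, 48, 153, 1173 and 3059 by mean CPM per kb among 13923 genes with reads on annotated transcripts. Star had 2064 and 3099 CPM per kb (mean 2582 ± 731.9, SD, n = 2) and Lonp1 had 1065 and 1126 (1095 ± 43.56). Tspo, whose transcript of 837 nt is the shortest, had 532.7 and 495.1 CPM per kb (513.9 ± 26.62). Neighbours in this order did not overlap, though 2 libraries give little information on the spread. Vdac1 had 101.9 and 77.84 CPM per kb (89.85 ± 16.98), and Stard3 had 32.48 and 28.97 (30.72 ± 2.485). Per kb, Star stood 63.5-fold above Stard3, the other START member, in replicate 1 and 107-fold in replicate 2. Against Lonp1, the protease that degrades its protein, the fold per kb was 1.94 and 2.75. Against the outer membrane genes it was 3.87 and 6.26 for Tspo, and 20.3 and 39.8 for Vdac1. A long read is counted once whatever its length, so division by length can distort these folds. In reads, the folds were 124 and 209 against Stard3 and 2.66 and 3.77 against Lonp1. They were 18.7 and 30.3 against Tspo, and 40.6 and 79.7 against Vdac1. On either scale each fold was larger in replicate 2.

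**Figure D1:**
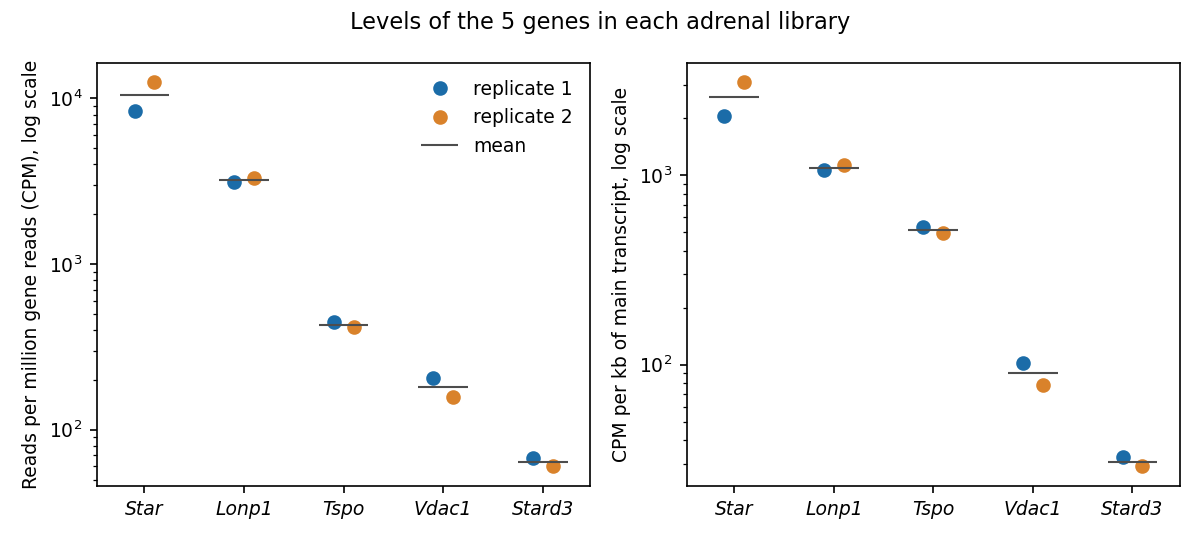
Levels of Star, Lonp1, Tspo, Vdac1 and Stard3 in each library, in CPM (left) and in CPM per kb of the main annotated transcript (right), both on log axes; points are libraries and bars the mean of the 2. Star is highest at 8352 and 12540 CPM, and the libraries of neighbouring genes do not overlap on either scale.

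The gene whose levels lay nearest to those of Star, by Euclidean distance of log2(CPM + 1) in the libraries over 4377 genes of 100 or more reads, was Hsd3b1, which makes progesterone from pregnenolone, with 8511 and 8748 CPM at a distance of 0.52. Next came Cyp21a1, the steroid 21-hydroxylase, with 15598 and 17939 CPM at a distance of 1. Lonp1 was nearest to Gsn (0.066; 3084 and 3186 CPM) and Fads2 (0.18). The other members lie at levels that many genes share, and their nearest genes were closer still. Tspo lay nearest to Tpst2 (0.0044) and Coq8a (0.025), Vdac1 to mt-Co1 (0.022) and Cdk5rap3 (0.026), and Stard3 to Nucks1 (0) and Zfp655 (0.015). With 2 values per gene this likeness is a description only.

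Of the 5 genes, Star was higher in replicate 2 and Vdac1 in replicate 1, each past an exact binomial test of the reads against TMM-scaled library sizes with Benjamini-Hochberg adjustment over 11068 genes; that test called 12.4% of all genes, 686 (6.2%) in the direction of replicate 2 and 687 (6.21%) in that of replicate 1. With ERCC spike-in reads as library size the split became 261 and 2210, as the median log2 ratio of all genes moved by -0.32. Star was 1.47-fold higher in replicate 2 (95% interval 1.43 to 1.51; adjusted p = 5.11e-186 in the exact binomial test). That is a log2 ratio of 0.55, and it was 0.23 with ERCC scaling. Vdac1 was 1.34-fold higher in replicate 1 (1.09 to 1.64; adjusted p = 0.0363 in the exact binomial test), and this call was lost without TMM factors (adjusted p = 0.062) and with reads of annotated models only (adjusted p = 0.256, both in the exact binomial test). For the other 3 genes the intervals of the ratio of replicate 2 over replicate 1 held 1: 0.909 for Tspo (0.799 to 1.03), 0.872 for Stard3 (0.615 to 1.23) and 1.03 for Lonp1 (0.988 to 1.08), which with ERCC scaling turned to a log2 ratio of -0.28.

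None of these differences stood out from the spread of genes in general. The common coefficient of variation between the libraries was 21.5% in edgeR, whose exact test with that dispersion called 0.244% of all genes (0.108% higher in replicate 2 and 0.136% in replicate 1). Under it 0 of the 5 members passed after Benjamini-Hochberg adjustment, and 0 had an unadjusted p under 0.05. The edgeR exact test gave an unadjusted p of 0.212 for Star and 0.378 for Vdac1, and the others lay between 0.723 and 0.913. Beside the higher level of Star in replicate 2, the summed cortex markers were 6.81% and 6.31% and the muscle markers 1016 and 2 reads; their part in the ratios was not tested. In whole tissue, fewer cells of a type and less RNA per cell cannot be told apart.

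**Figure D2:**
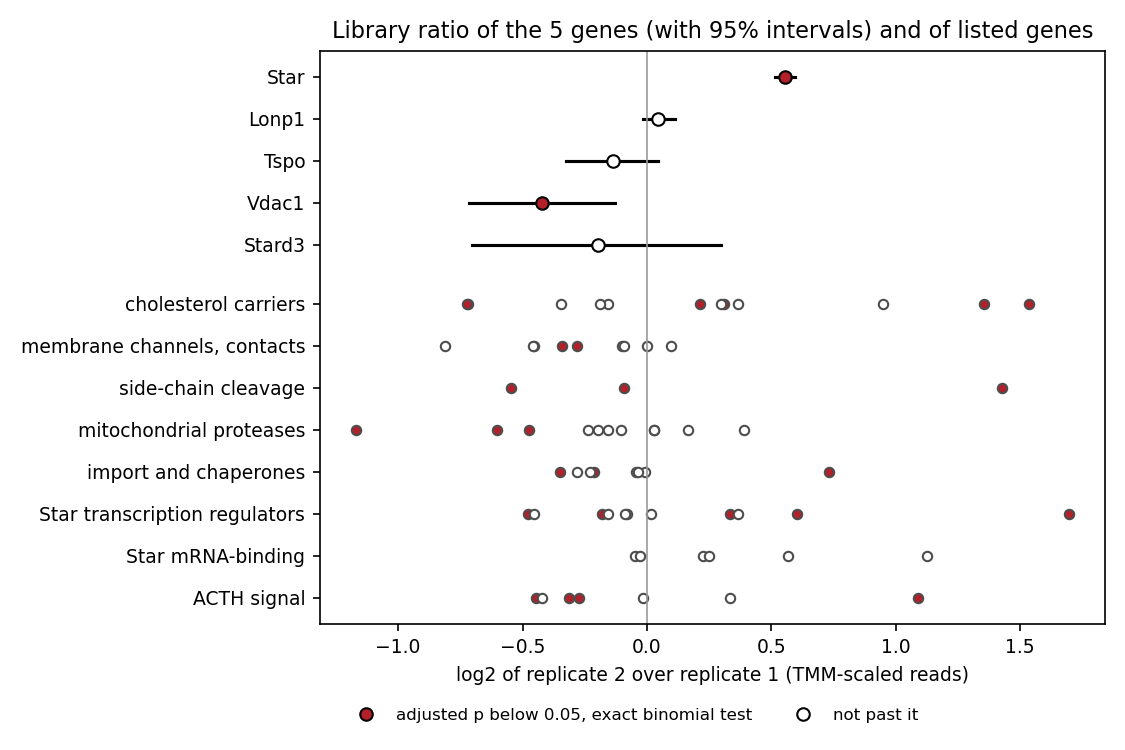
Log2 ratio of replicate 2 over replicate 1 (TMM-scaled reads) for the 5 genes, with 95% intervals, and for the tested genes of 8 related lists, where points can lie on each other; filled points had an adjusted p below 0.05 in the exact binomial test. Star lies at 0.55 and Vdac1 at -0.42, and the intervals of Lonp1, Tspo and Stard3 hold 0.

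A further 73 genes, in 8 lists, give the surroundings of the 5 members. Of these 67 were tested, 10 were higher in replicate 2 and 17 in replicate 1 by the exact binomial test, 40.3% together against 12.4% of all genes. Their median log2 ratio was -0.08, with 0.00 over all genes, and abundant genes pass this test at small folds. Over all genes the shares past the test were 6.2% toward replicate 2 and 6.21% toward replicate 1, or 2.36% and 20% with ERCC scaling, where the median of all genes was -0.32, and each list's counts stand beside these. By edgeR's exact test 0 of the 67 passed after adjustment, and 6 (8.96%) had an unadjusted p under 0.05, as had 4.65% of all genes. Of the 12 tested cholesterol carriers, 4 were higher in replicate 2 and 2 in replicate 1 (median log2 ratio 0.26), but 2 and 3 with ERCC scaling. Dbi, the acyl-CoA-binding protein that is also a ligand of Tspo, had 841.5 and 1000 CPM and was 1.16-fold higher in replicate 2 (1.07 to 1.27), with a log2 ratio that turned to -0.11 under ERCC scaling. Scp2, the sterol carrier protein, had 747.4 and 464.7 CPM and was 1.64-fold higher in replicate 1 (1.47 to 1.84). Mfn2, which tethers mitochondria to the endoplasmic reticulum, had 283.8 and 359.8 CPM and was 1.24-fold higher in replicate 2 (1.07 to 1.44), with a log2 ratio of -0.02 under ERCC scaling. Tspo2, the paralogue of Tspo, had 0 reads in both libraries.

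In the side-chain cleavage system itself the 3 partners did not move together. Cyp11a1, the cleavage enzyme, had 19260 and 18500 CPM and was 1.06-fold higher in replicate 1 (1.04 to 1.09). Fdx1, the ferredoxin that carries electrons to it, had 754.5 and 2072 CPM and was 2.69-fold higher in replicate 2 (2.49 to 2.90). Fdxr, the reductase that loads the ferredoxin, had 1970 and 1378 CPM and was 1.46-fold higher in replicate 1 (1.37 to 1.56). Star was higher in replicate 2, as Fdx1 was and Cyp11a1 was not. All 3 partners passed the exact binomial test, and 0 passed edgeR's after adjustment.

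Of the 9 membrane channels and contact proteins, 0 were higher in replicate 2 and 3 in replicate 1 (median log2 ratio -0.28), and 0 and 8 with ERCC scaling. Slc25a5, an ADP/ATP carrier of the inner membrane, had 678 and 646.7 CPM and did not pass the test. Phb, a prohibitin of the inner membrane, had 577.5 and 466.8 CPM and was 1.27-fold higher in replicate 1 (1.12 to 1.42). Slc25a4, another ADP/ATP carrier, had 547.8 and 460.4 CPM and was 1.22-fold higher there (1.08 to 1.37). Vdac2 and Vdac3, the paralogues of Vdac1, were named after their values were seen: Vdac2 had 230.7 and 236.6 CPM, and Vdac3 had 325.6 and 243.1 CPM and was 1.37-fold higher in replicate 1 (1.17 to 1.61).

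Of the 11 other mitochondrial proteases and their partners, 0 were higher in replicate 2 and 3 in replicate 1 (median -0.16), and 0 and 6 with ERCC scaling. Among them Afg3l1, a subunit of an inner membrane protease, had 353.2 and 260.2 CPM and was 1.39-fold higher in replicate 1 (1.19 to 1.62), while its relative Afg3l2 (259.7 and 296.6 CPM) and Pmpcb, a subunit of the peptidase that removes presequences (263.3 and 250.5 CPM), did not pass. Of the 8 import and chaperone genes, 1 was higher in replicate 2 and 2 in replicate 1 (median -0.13), and 1 and 5 with ERCC scaling. Hspd1, the matrix chaperonin, had 4081 and 3273 CPM and was 1.27-fold higher in replicate 1 (1.22 to 1.33). Hspa9, the motor of import into the matrix, had 1310 and 1156 CPM and was 1.16-fold higher there (1.07 to 1.25), and Tomm40, the pore of the outer membrane, had 360.2 and 314.8 CPM and did not pass.

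Of 11 tested regulators of Star transcription, 3 were higher in replicate 2 and 2 in replicate 1 (median -0.07), and 2 and 4 with ERCC scaling. Cebpb, a leucine zipper factor, had 2903 and 2615 CPM and was 1.14-fold higher in replicate 1 (1.08 to 1.19). Nr5a1, the nuclear receptor that drives steroidogenic genes, had 1031 and 1605 CPM and was 1.52-fold higher in replicate 2 (1.42 to 1.64), beside 1.47-fold for Star. Jun had 358.8 and 463.6 CPM and was 1.26-fold higher in replicate 2 (1.11 to 1.44), with a log2 ratio of 0.01 under ERCC scaling, and Nr5a2, the close relative of Nr5a1, had 0 reads in both. Of 6 genes of proteins linked to the Star mRNA or to AU-rich elements, 0 passed the exact binomial test in either direction (median 0.24), the nearest being Khsrp, named after its values were seen, at 14.86 and 33.19 CPM (adjusted p = 0.053). With a minimum of 50 reads 1 of 5, Khsrp, passed as higher in replicate 2. Of the others, Akap1, which anchors mRNA and protein kinase A at mitochondria, had 183.3 and 223.8 CPM, Elavl1 had 118.9 and 142.4, and Zfp36l2, of the AU-rich element-binding family, had 52.37 and 52.46. Of the 7 genes of the ACTH signal, 1 was higher in replicate 2 and 3 in replicate 1 (median -0.27), and 1 and 5 with ERCC scaling. Gnas, the stimulatory G protein, had 1973 and 1624 CPM and was 1.24-fold higher in replicate 1 (1.17 to 1.32). The kinase A subunit Prkar1a had 1202 and 1217 CPM and did not pass, and Prkar2b, with 906.6 and 766.6 CPM, was 1.21-fold higher in replicate 1 (1.10 to 1.33).

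The reads of each gene were next divided by the junctions they hold, since a long read shows the introns of 1 molecule together. Most reads of every member matched 1 annotated transcript: Star-201 with 10007 reads (84.8%) and 9172 (78.3%), Lonp1-201 with 4020 (90.6%) and 2678 (86.3%), Tspo-201 with 580 (92.1%) and 346 (89.4%), Stard3-201 with 78 (82.1%) and 44 (78.6%), and Vdac1-202 with 218 (74.9%) and 113 (76.9%). The median main isoform share over 6413 genes was 74.6% and 70.7%. The share fell in replicate 2 by 6.49 points for Star (interval of the difference -7.47 to -5.50; Fisher's exact test, Benjamini-Hochberg adjusted p = 2.06e-34) and by 4.29 points for Lonp1 (-5.79 to -2.82; adjusted p = 2.67e-06, Fisher's exact test), where 2.21% of all genes were called, 13 (0.203%) with a larger share in replicate 2 and 129 (2.01%) in replicate 1. The other 3 members did not pass, with differences of -2.66 points for Tspo (-6.59 to 0.93), -3.53 for Stard3 (-17.49 to 8.93) and 1.96 for Vdac1 (-6.82 to 10.01). Without incomplete and genomic models the difference for Star was -0.54 points and no longer passed (adjusted p = 0.164, Fisher's exact test).

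For Star the reads outside Star-201 were mainly reads without any junction. They numbered 1046 of 11801 (8.86%, 8.36 to 9.39) in replicate 1 and 1636 of 11712 (14.0%, 13.3 to 14.6) in replicate 2, a share larger in replicate 2 by 5.10 points (4.29 to 5.92; Benjamini-Hochberg adjusted p = 9.51e-32, Fisher's exact test). Over 6046 genes the test of this share called 1.22%, 66 (1.09%) with a larger share in replicate 2 and 8 (0.132%) in replicate 1. Pooled over all these genes, single-exon reads were 5.14% in replicate 1 and 7.11% in replicate 2, so Star moved the way the libraries did as a whole. Nearly all of these Star reads lay on models starting at 25812619 or beyond, in or next to the last exon, which holds the long 3-prime UTR (960 and 81 reads on 2 models in replicate 1; 826, 626 and 154 on 3 models in replicate 2). Vdac1 had the highest share of single-exon reads, 51 of 291 (17.5%) and 29 of 147 (19.7%), which did not differ beyond counting error (2.20 points, -5.18 to 10.38). The share was 1.90% and 1.81% for Tspo and 0.563% and 1.29% for Lonp1 (adjusted p = 0.0689, Fisher's exact test). Of the Lonp1 single-exon reads, 23 of 25 and 40 of 40 lay on a listed model of only 1 base, at 56614297. Stard3 had 0 of 95 and 0 of 56 single-exon reads, with intervals that reach 3.81% and 6.38%.

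**Figure D3:**
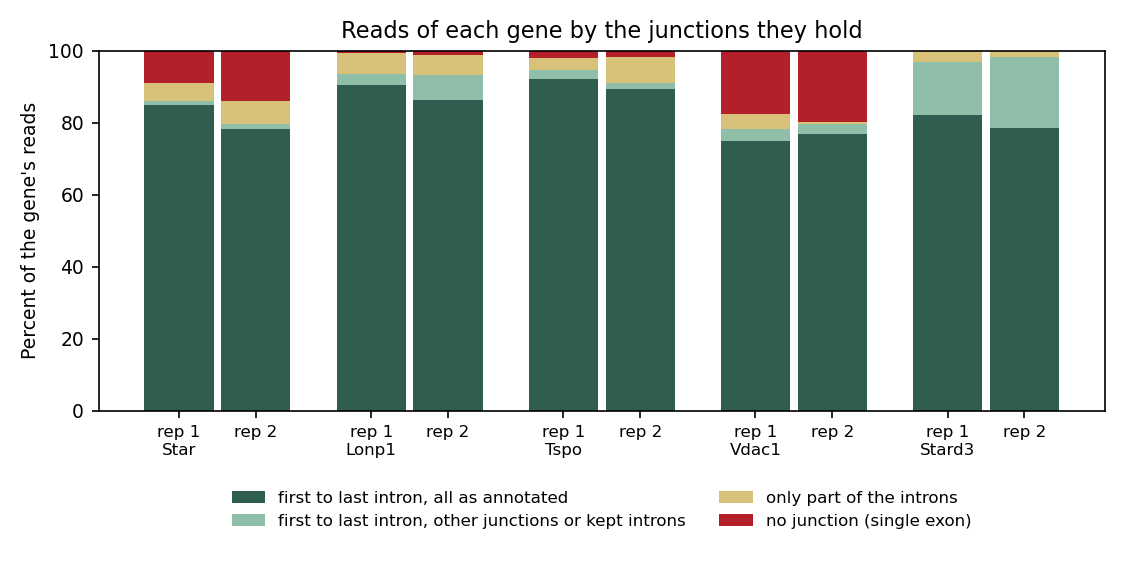
Reads of each gene in each library (percent of the gene's reads) by the junctions they hold: from the first to the last intron as annotated, from the first to the last intron with other junctions or kept introns, only some of the introns, or none. Single-exon reads are 8.86% and 14.0% of Star reads and 17.5% and 19.7% of Vdac1 reads, and Stard3 has none.

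Reads of Star with junctions were nearly all spliced as annotated. The transcript Star-201 has 7 exons and 4046 nt, of which 852 code for protein and 3096 form the 3-prime UTR. Of reads running from its first to its last intron, 10013 of 10140 (98.7%, 98.5 to 99.0) and 9177 of 9342 (98.2%, 97.9 to 98.5) held all 6 introns spliced as annotated. The first junction was held by 10182 and 9402 reads and the last by 10651 and 9916. Most spliced reads thus ran from the first to the last intron. How far they reached into the first and last exons is not seen. No internal exon was skipped in more than 9 reads in a library. Partial reads were led by a chain of introns 4 to 6 (312 and 349 reads), then by introns 2 to 6 (108 and 123) and introns 5 to 6 (55 and 72), which lack the 5-prime part. A chain of introns 1 to 5 without the last had 50 and 63 reads.

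The junctions of Star that the annotation lacks were rare: 70 were seen, 19 of them in both libraries. In intron 3 the acceptor lay 3 nt downstream in 17 and 28 reads, or the donor 4 nt downstream in 27 and 23 reads. In intron 5 the acceptor lay 2 nt downstream in 12 and 29 reads. In intron 1, donors 199 and 321 nt downstream of the annotated one were used in 7 and 10, and in 2 and 15 reads. Exon 6 was joined to an acceptor 154 nt upstream of the last exon in 10 and 10 reads. In 7 and 10 reads exon 6 was joined to base 25822708, which lies within Ash2l, the neighbouring gene on the opposite strand (chr8:25815996-25847694). Shifts of a few nt can also come from read alignment, and their source was not tested.

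The 3-prime UTR of Star is where proteins of the Zfp36 family are known to bind AU-rich elements, and the motif TATTTAT occurred 3 times within it on the sense strand, at 2063, 2096 and 2125 nt after the stop codon. These windows are shown because they place the known kind of site on the annotated transcript Star-201. Whether the reads measured here reach these sites is not seen, since matches to Star-201 carry its annotated end. Capitals mark the motif, and the sequence is that of GENCODE M21 transcripts on mm10, plus strand.
Star 3-prime UTR, chr8:25814938-25814967: agaactgagctTATTTATgaatagaacaat
Star 3-prime UTR, chr8:25814971-25815000: gaacatgtactTATTTATtgaagtcttaag
Star 3-prime UTR, chr8:25815000-25815029: gccttcactgaTATTTATtgctcacctcgg
At least 1 match was present in 51.9% of 3586 annotated 3-prime UTRs at least as long, taking their last 3096 nt, so its presence is not unusual for this length. The UTRs of Stard3, Tspo, Vdac1 and Lonp1, of 537, 245, 874 and 87 nt, held 0 matches.

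Where the 3-prime ends of Star reads lay could not be compared between the libraries. Each unannotated chain of introns has exactly 1 model per library, so the end listed for a model stands for all reads of that chain and not for their own ends. Of 27620 chains found in both libraries over all genes, 83.3% listed the same 3-prime end within 50 bp, but of 32 such chains of Star 21.9% did, and of 47 of Lonp1 97.9%. The Star chain of introns 4 to 6, for example, is listed to end at 25814466 in replicate 1 and at 25815310 in replicate 2. In replicate 1 the ends 25812423 and 25813414 listed for Star models are also the bounds of an unannotated model on the opposite strand, 25814144 is a bound of an Ash2l model, and 25816525 is an annotated exon bound of Ash2l-205. By these listed ends, the share of Star reads at the annotated 3-prime end was 85.3% and 78.3% (adjusted p = 5.85e-41, Fisher's exact test, which called 4.44% of genes, 1.36% with the larger share in replicate 2 and 3.09% in replicate 1), and the share at the annotated start was 86.5% and 81.9% (adjusted p = 2.04e-19, Fisher's exact test, 4.52% of genes called, 0.998% and 3.52% by direction). Without genomic and single-exon models the first difference shrank from -6.96 to -2.53 points (adjusted p = 1.33e-09, Fisher's exact test) and the second turned from -4.55 to 0.17 points. Reads matching an annotated transcript carry its annotated ends, so their own ends are not seen. Of the Star reads listed at the annotated 3-prime end, 10007 of 10063 in replicate 1 and all 9172 in replicate 2 were matches to Star-201. The tests of listed Star ends thus largely repeat that of the main isoform share. For the other 4 members, 98.3% to 100% of reads were listed at the annotated 3-prime end, with the same limit.

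Of the positions listed as ends of Star models, some lie beside a polyadenylation signal and one before a run of A. The first 2 windows below show the signal in capitals, at an end listed for 14 models in replicate 2 and at the annotated end. The last shows, in capitals, the 20 bases that follow the end 25814466, listed for 26 models in replicate 1, with 25814464 listed for 20 models in replicate 2.
Star, end listed at 25813409, chr8:25813380-25813409: tactaatcccatgacAATAAAgaacataca
Star, annotated end, chr8:25815953-25815982: aagtatATTAAAttgtgttaatagtcattc
Star, end listed at 25814466, chr8:25814457-25814486: aatgctgctcAAAAACATAAAAAAATAAAA
The sense-strand signal AATAAA was present in the last 50 bases of 40.6% of annotated transcripts and in 3.01% of inner UTR windows of that length, and ATTAAA in 11.9% and 2.43%. Neither was present in the 50 bases before 25814466, and 17 of the 20 bases after it are A, as in 0.0726% of 20-base UTR windows. Whether reads there begin at a poly(A) tail or within this A-rich stretch was not tested.

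Lonp1 reads kept introns 7 and 8 more often in replicate 2. The transcript Lonp1-201 has 18 exons and a coding sequence of 949 codons. Of reads running from the first to the last intron, at least 1 intron was kept in 51 of 4158 (1.23%, 0.915 to 1.61) in replicate 1 and in 157 of 2898 (5.42%, 4.62 to 6.31) in replicate 2. The share was larger in replicate 2 by 4.19 points (3.33 to 5.12; p = 1.51e-21 in Fisher's exact test, Benjamini-Hochberg adjusted over 4417 genes). That test called 35 genes (0.792%), all with the larger share in replicate 2; at an unadjusted p under 0.05 it gave 208 with the larger share in replicate 2 and 2 in replicate 1. Pooled over all genes, 0.687% and 1.48% of such reads kept an intron, so the direction was shared by the libraries as a whole.

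The kept introns of Lonp1 were few. Intron 7 was kept in 45 of 4315 reads across it (1.04%, 0.762 to 1.39) and in 144 of 2991 (4.81%, 4.08 to 5.64). Intron 8 was kept in 48 of 4327 (1.11%, 0.819 to 1.47) and in 152 of 2994 (5.08%, 4.32 to 5.92). Next came intron 13 with 0.252% and 1.42%, and intron 12 with 0.137% and 0.364%. No other intron was kept in more than 8 reads of a library. Introns 7 and 8 mostly stayed in the same molecules: of the reads keeping an intron, 34 of 51 (66.7%) and 112 of 157 (71.3%) kept both, 7 and 19 kept intron 7 without 8, and 10 and 25 kept 8 without 7. The most abundant such model has 16 exons and 4259 nt, with 21 reads in replicate 1 and 66 in replicate 2. The annotated transcript Lonp1-202, classed as a target of nonsense-mediated decay, also holds both introns and had 3 and 4 reads. Its annotated coding sequence has only 423 bases, whereas intron 7 follows 1113 coding bases of the main annotated transcript. The annotated stop of Lonp1-202 thus lies before both introns, and whether keeping them leads to decay was not tested.

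The edges of these introns are shown because they carry the retained sequence; capitals mark the first 2 bases of the intron in the donor windows, its last 2 in the acceptor windows and the first in-frame stop codon in the stop windows. All were read from Lonp1-202 in GENCODE M21 on mm10 and are written 5-prime to 3-prime on the minus strand. Codons and in-frame stops follow the coding sequence of 949 codons of the main annotated transcript, not the shorter one annotated for Lonp1-202.
Lonp1 intron 7 donor, chr17:56619971-56620000: cgcctaggccgtgagGTgacaggagggaag
Lonp1 intron 7 acceptor, chr17:56619378-56619407: ctccacctgccacAGgtagaggagaagatc
Lonp1 intron 7 stop, chr17:56619948-56619977: agggaagaggaggTGAagggggtacatctc
Lonp1 intron 8 donor, chr17:56619157-56619186: ctcctctgagttcaaGTgagtccgcacagc
Lonp1 intron 8 acceptor, chr17:56618442-56618471: tccttgtccctgtAGtgtcactcgaaacta
Lonp1 intron 8 stop, chr17:56619142-56619171: gTGAgtccgcacagccatggcccatagcca
Intron 7 (chr17:56619393-56619985) has 593 nt and follows 371 codons, and reading on into it meets the stop TGA at its base 22. Intron 8 (chr17:56618457-56619171) has 715 nt and follows 444 whole codons, and the stop TGA starts at its base 2. Neither length is a multiple of 3, and exon 8 between them has 221 nt.

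**Figure D4:**
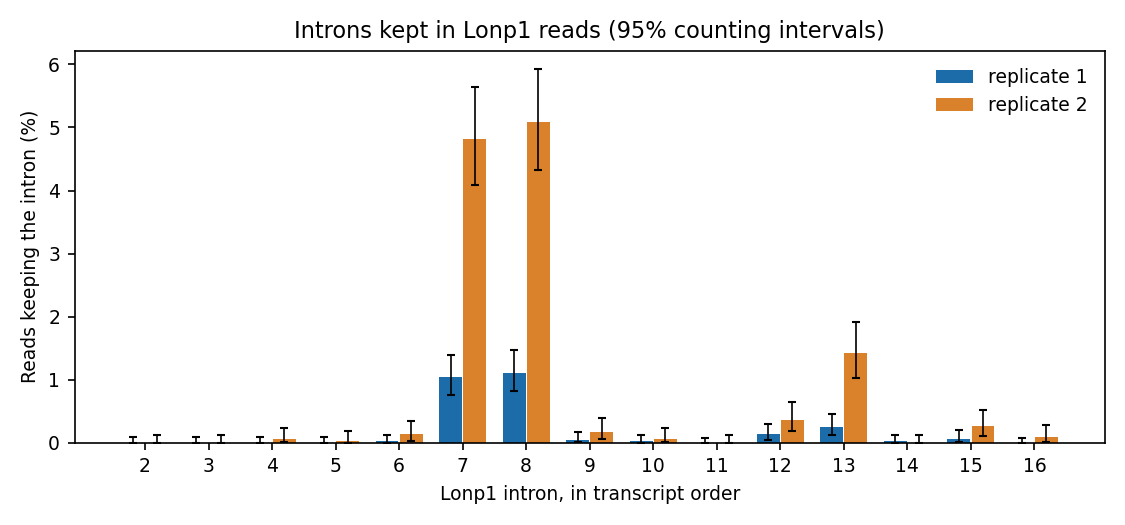
Percent of the Lonp1 reads across each inner intron that keep it, by library, with 95% counting intervals. Introns 7 and 8 stand at 1.04% and 1.11% in replicate 1 and at 4.81% and 5.08% in replicate 2, and intron 13 is next.

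In the other members no difference in kept introns passed. Star, with the deepest coverage, had 3 of 10140 (0.0296%) and 11 of 9342 (0.118%) reads that kept an intron, with a Benjamini-Hochberg adjusted p = 0.781 in Fisher's exact test. Taken by the listed ends of the models, which differ between the libraries for Star, the difference was 0.90 points (adjusted p = 2.35e-08, Fisher's exact test). Stard3 had 1 of 92 and 5 of 55 (9.09%, 3.02 to 20.0), a difference of 8.00 points (0.96 to 18.53; Benjamini-Hochberg adjusted p = 0.748, Fisher's exact test), which few reads leave uncertain. Tspo had 0 of 597 and 0 of 352, with intervals that reach 0.616% and 1.04%. Vdac1 had 1 of 228 and 1 of 117, with intervals that reach 2.42% and 4.67%.

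Beyond Lonp1-201, the new junctions of Lonp1 with most reads were an acceptor of intron 5 that lay 2 nt downstream (14 and 16 reads) and a donor at 56625366, within intron 1, joined to exon 2 (5 and 7 reads). Annotated junctions made up 99.7% and 99.1% of the reads across Lonp1 introns. Stard3 had 8 of 95 reads (8.42%) and 9 of 56 (16.1%) on new combinations of annotated splice sites, the highest share among the members. The intervals were wide, at 3.71 to 15.9% and 7.62 to 28.3%. Over all annotated genes this class took 3.97% and 4.5% of reads, and the interval in replicate 1 holds the former. Tspo had 5 and 2 reads of that class, and its shorter models lacked the first exon (9 and 15 reads) or the first 2 exons (11 and 13 reads). For Vdac1 the second annotated coding transcript, Vdac1-201, had 5 and 0 reads. A donor 807 nt downstream of that of the first exon of Vdac1-202 was used in 4 and 1 reads.

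Vdac1 has processed copies in the genome, so its reads could have been split. Its transcript aligned to 14 annotated processed pseudogenes at 73.2% to 89.3% identity, and all 14 had 0 reads in both libraries. In RefSeq's promoter windows on GRCm38.p6, from 250 bases before to 50 after a start, 3 of the 5 members matched: Vdac1 had 2 windows and Stard3 and Lonp1 had 1 each; both strands were searched. The promoters of Star and Tspo were not analysed here. AAGGNCA, the half-site of Nr5a1, matched 2 times in the second Vdac1 window and 0 times in the others, and 20.3% of 32851 promoters hold it. That second window has its start at 52361597 and the first at 52360851. Most Vdac1 reads, 218 and 113, were listed to start at 52360860, near the first. These were the matches to Vdac1-202, which carry its annotated start, so their own starts are not seen. A further 10 and 5 reads on unannotated models were listed to start at 52361135, between these starts and the annotated start of Vdac1-203. Which start the reads came from was not tested. GGGCGG, which 35.7% hold, matched 3 times in the second Vdac1 window, 5 times for Stard3 and 1 time for Lonp1. CCAAT, which 37.4% hold, matched 1 time for Stard3, and TATAAA, which 13.6% hold, matched 0 times.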

How the data were processed

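Per the labels, the data are long-read RNA sequencing of adrenal gland, 1 group of 2 libraries. The deposited files are, per library, counts of reads on transcript models, which per the file headers are whole numbers of reads per model with no normalization by the authors, and a matching annotation on mm10 with GENCODE M21. Which aligner, program versions and filters of reads were used is not given in the sources used here. Reads on new gene models and on ERCC spike-ins (1.24% and 1.54% of reads) were left out of gene totals.

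Counts were summed per annotated gene. Ratios used edgeR 4.0.16 TMM factors (0.989 and 1.01) from genes with at least 10 reads, a two-sided exact binomial test and edgeR's exact test with the common dispersion of an intercept-only design. Shares were compared by two-sided Fisher's exact tests over genes with 20 or more reads per library, with Newcombe intervals for differences. Calls used Benjamini-Hochberg adjusted p-values at a threshold of 0.05, and p-values without adjustment are called unadjusted. Chains of introns came from the deposited models; an intron counted as kept only between junctions on both sides. Genes with coordinates, and transcript sequences, are GENCODE M21. Of each related list the 3 genes of highest mean CPM and those with 0 reads are named. The members and lists were chosen with earlier results of these data known, and the tests of single-exon reads and kept introns were added after seeing the data. The result of 1 marker list is not reported here. Steps were tested on simulated data. Tools were R 4.3.3, DESeq2 1.42.0 (an alternative scaling), Python 3.11.15, SciPy 1.17.1, statsmodels 0.14.6 and minimap2 2.31-r1302.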

Additional observations from a re-analysis of the deposited data

Results flagged for a closer look

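Reads on unannotated models opposite 2 of the genes were outside all comparisons, and those listed here lie above the floor of 3 reads. Opposite Star, a model from 25812423 to 25813414 had 16 reads in replicate 1, and models from 25812034 to 25813781 and from 25814137 to 25814933 had 34 and 19 reads in replicate 2. All lie over intron 6 or the last exon of Star. Unannotated models opposite Star held 17 reads in all in replicate 1 and 55 in replicate 2, beside 11801 and 11712 reads of Star. Opposite Vdac1, a model from 52385733 to 52387416 had 4 reads in replicate 1, and in replicate 2 models from 52362862 to 52363103, from 52368758 to 52370208 and from 52378208 to 52378601 had 7, 4 and 4 reads. How the authors assigned strand is not given in the sources used here, so reads of a gene and of its opposite strand may not be cleanly separated.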

How the results depend on the processing

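Of 292 comparisons of a value with an alternative setting, 252 counted as the same. For a gene this meant that no call was gained, lost or reversed. For a value without a test it meant a move within its spread. For a count of genes it meant a change within a set fold, so single calls can differ. An example is 527 genes higher in replicate 2 without a minimum of reads, against 686. In 6 of the 252 a value that passed no test changed sign or became 0. With ERCC reads as library size, the binomial test gave 261 genes higher in replicate 2 and 2210 in replicate 1, Tspo passed at a log2 ratio of -0.46 (adjusted p = 9.88e-06, exact binomial test), Lonp1 turned to -0.28 (adjusted p = 7.33e-15) and edgeR called 6 genes higher in replicate 2 (12 with TMM). With annotated models only, 435 genes were higher in replicate 1 and Vdac1 had -0.31 (adjusted p = 0.256); with no factor it had -0.39 (adjusted p = 0.062). Of alternatives added after seeing the data, doubling the smaller tail for the two-sided binomial p gave 635 and 651 genes, and TMM factors from all genes gave 612 and 769, Star 0.52 and Vdac1 an adjusted p of 0.0198. The mean level with all reads as the total was 405.1 CPM for Tspo and 3042 for Lonp1, and with annotated models only 518.9 and 3805.

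Genes with a larger main isoform share in replicate 2 and in replicate 1 numbered 8 and 45 without incomplete and genomic models (Star -0.54 points, adjusted p = 0.164, Fisher's exact test), 63 and 307 with ends matched within 100 bp, and 64 in replicate 1 with spliced models only. Without genomic and single-exon models the numbers were 53 and 98 for 3-prime ends and 41 and 79 for 5-prime starts (Star 0.17 points); with at least 50 reads, 36 starts were larger in replicate 2. With models of at least 2 reads, annotated models took 91.7% for Stard3 and 79.2% for Vdac1, and annotated junctions 99.78% for Star, 99.41% for Stard3 and 99.84% for Vdac1. Added after seeing the data, kept introns taken by listed ends gave 64 and 7 genes and 0.90 points for Star (adjusted p = 2.35e-08, Fisher's exact test). A minimum of 50 reads, also added then, gave 0.73 points of single-exon reads for Lonp1 (adjusted p = 0.0453, Fisher's exact test). Of these Lonp1 reads, 23 of 25 and 40 of 40 lay on a listed model of 1 base. The causes were not tested.

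Leaving out a library leaves the other's value: 8352 to 12540 CPM for Star, 59.96 to 67.24 for Stard3, 414.4 to 445.9 for Tspo, 157.4 to 206 for Vdac1 and 3142 to 3323 for Lonp1. Annotated models then took 78.3 to 84.8% for Star, 78.6 to 82.1% for Stard3, 89.4 to 92.1% for Tspo, 76.6 to 76.9% for Vdac1 and 86.4 to 90.6% for Lonp1, and annotated junctions 99.65 to 99.74%, 97.8 to 98.62%, 99.01 to 99.45%, 99.47 to 99.57% and 99.06 to 99.67%. Ratios and differences of shares need both libraries. No paired analysis was possible because the labels give 1 group.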
